A study of Mus musculus with 4 samples.

Results

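The genes described here encode the machinery that moves new proteins into the endoplasmic reticulum (ER), cuts off their signal peptides, attaches and trims their sugars, folds them and returns failed ones for degradation. The set was a list of gene names chosen by function, with earlier results of these data known. All 50 of its genes were found among the 16537 genes of the deposited table. They were measured by RNA-seq in YUMM1.7 cells, a mouse melanoma cell line labelled wild type. Each replicate came from 6 inserts with 1-µm pores, on which cells were kept overnight. Material above the membrane gave the cell body fraction and what remained in it the protrusion fraction. The 4 libraries were 2 of cell bodies and 2 of protrusions, all from this 1 line in the same culture conditions, with no treatment or edited group among them.

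Proteins that are secreted or that sit in membranes are mostly made on ribosomes docked at the ER. The signal recognition particle and its receptor bring the ribosome to the Sec61 channel, and signal peptidase and oligosaccharyltransferase act on the chain as it enters. Inside, the chaperones BiP and GRP94, the lectins calnexin and calreticulin and the protein disulfide isomerases fold it, and proteins that fail are sent back to the cytosol for degradation.

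Levels are given in TPM, the share of a library's gene-assigned RNA that a transcript makes up once its length is taken into account. Because a TPM value is a share of a bulk fraction, fewer molecules of an mRNA and more of all other RNA cannot be told apart, and neither can less RNA per protrusion and fewer protrusions. A fold change is the difference of log2(TPM + 0.5) between the fraction means, protrusions minus cell bodies, which understates changes at low TPM. A gene was called at an adjusted p under 0.05 in a limma fit over the 11400 genes whose TPM averaged 1 or more. Reads assigned to genes, recovered from the TPM values, came to 25864942 to 31002337 per library. Between 195 and 75784 of them fell on a member in a library, and 5 members had under 1000 reads in at least 1 library. The p-values measure the spread among 2 samples a fraction, which the labels call biological replicates. For them limma moves each gene's spread towards that of genes at a like level. The control mRNAs *Ppia* and *Ywhaz* had log2 fold changes of 0.16 and 0.11. Of 10 melanocyte and melanoma markers, 6 were in the table with summed levels of 426 to 604 TPM, most of it *Axl*, while the pigment gene *Pmel* was near 0. The sum of 20 liver genes was 89.0 TPM in protrusions replicate 1 and 1.42 to 3.64 TPM in the other libraries.

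Many proteins of the ER lumen end in a 4-residue signal, KDEL in its usual form, by which they are fetched back from the Golgi. The ends of the coding sequences are printed for 6 abundant members that have it, since they show which of these mRNAs encode residents of the lumen. Each runs 5′ to 3′ on the coding strand through the stop codon (GRCm38, the same build as mm10, GENCODE transcripts), and capitals mark the 12 bases that encode the signal.
*Hspa5*, chr2:34776090-34776113, plus strand: acatcagaaAAAGATGAGTTGtag
*Hsp90b1*, chr10:86691102-86691125, minus strand: tctacagagAAGGATGAATTGtaa
*Pdia6*, chr12:17283983-17284006, plus strand: gacctggagAAGGATGAGTTGtga
*P4hb*, chr11:120561183-120561206, minus strand: aaagctgtgAAGGATGAACTGtag
*Calr*, chr8:84842647-84842670, minus strand: ggccaagccAAGGATGAGCTGtag
*Pdia4*, chr6:47796488-47796511, minus strand: agcaggaccAAGGAAGAGCTTtaa
A coding sequence ending in aspartate or glutamate, then glutamate and leucine, was searched for, and other forms of the signal were not. It was found in 11 members, among them *Uggt1*, *Prkcsh*, *Hyou1*, *Dnajc10* and *Sdf2l1*.

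The mRNAs of the ER machinery made up a smaller share of the RNA in protrusions than in cell bodies. Of the 50 members, 24 were lower in protrusions and 0 were higher. Over all genes tested, 4.25% were called lower and 2.99% higher. The median log2 fold change of the members was -0.68, against -0.07 over all genes tested, and single members ranged from -1.27 for *Ccdc47* to 0.31 for *Sec61b*. Their summed level was 14320 and 14575 TPM in the cell body libraries and 9329 and 7714 TPM in the protrusion libraries, that is, 1.43% and 1.46% of a library's TPM against 0.933% and 0.771%. Both protrusion libraries lay below both cell body libraries for 44 members, an arrangement found in 37% of all genes tested, and above both for 1, *Sec61b*, an arrangement found in 26.4%. At an unadjusted p under 0.05 there were 43 members lower and 1 higher, against 2134 and 1432 of the 11400 genes tested. Voom on the recovered reads called 31 members lower and 0 higher, against 847 and 735 of these genes.

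With the replicate number as a block, which pairs the fractions taken from the same inserts, 41 members were lower and 0 higher, while 13.3% of all genes tested were lower and 8.08% higher. That fit leaves 1 residual degree of freedom, to which limma adds 10.2 from the spread of all genes tested. Without the block these are 2 and 3.81. Simulated data, drawn with no variation shared within a replicate, gave false calls above the threshold in most sets, and by most with the block. The fractions here share inserts, so these tests cannot say how often the block's calls are false. With 1 residual degree of freedom, calls made only with the block are less certain. Leaving out a library leaves a fraction with 1, which is then assumed to vary like the other fraction. With any 1 library left out, most or all of the 24 calls were lost. The median log2 fold change of the members was -0.84 without protrusions replicate 1 and -0.54 without protrusions replicate 2. It was -0.73 without cell bodies replicate 1 and -0.66 without cell bodies replicate 2. Over all genes the medians of these fits were, in the same order, -0.08, -0.04, -0.12 and -0.02. With no filter on low values no gene passed in limma, and 42 members and 2162 of all genes were lower at an unadjusted p under 0.05. The 24 called members were below 0 in each of these fits, which had to be so because their fractions did not overlap.

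**Figure D1:**
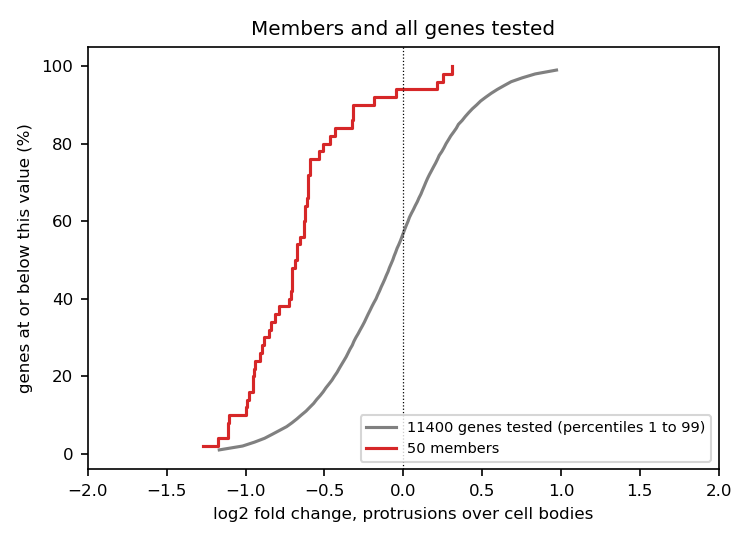
Share of genes (vertical axis, %) at or below each log2 fold change, protrusions over cell bodies (horizontal axis), for the 50 members (red steps) and for the 11400 genes tested (gray line, percentiles 1 to 99). The members' curve lies left of the gray one, with medians of -0.68 and -0.07, and 47 of the 50 members are below 0.

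The decrease was seen in both replicates and was larger in replicate 2. Within a replicate, the median log2 difference of the members was -0.54 in replicate 1 and -0.87 in replicate 2, and 46 members were lower in protrusions in both replicates, as were 44.3% of all genes tested. The exceptions were *Sec61b*, *Sec61g*, *Edem1* and *Syvn1*. Protrusions replicate 2 had a lower level than protrusions replicate 1 for 46 members and for 63.0% of all genes tested, whereas cell bodies replicate 2 lay below cell bodies replicate 1 for 21 members and 38.1% of all genes. The liver genes summed to 89.0 TPM in protrusions replicate 1 and 3.64 TPM in protrusions replicate 2, and a part for this RNA in the gap was not tested.

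**Figure D2:**
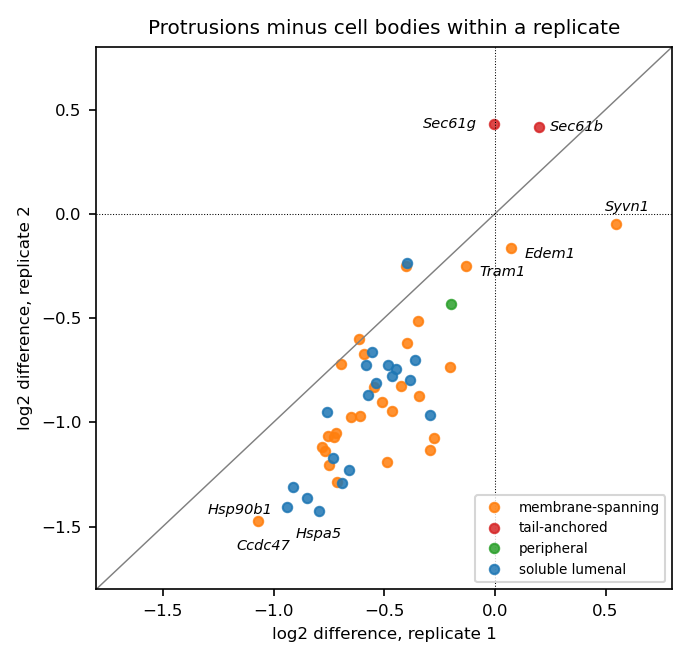
Log2 difference of log2(TPM + 0.5), protrusions minus cell bodies, in replicate 1 (horizontal axis) and replicate 2 (vertical axis) for the 50 members (points), colored by how the protein sits in the ER. The gray line marks equal differences. Most points lie below the line and to the lower left of 0, the 2 tail-anchored members lie above 0 in replicate 2, and *Syvn1* stands apart at the right.

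At the channel itself the members went different ways. Of 7 genes of the translocation channel and its helpers 2 were lower, and 3 with the block, with a median log2 fold change of -0.47. *Ccdc47* (chr11:106199355-106216367, minus strand, mm10), which encodes a membrane protein of the translocon for multipass proteins, was at 107 and 119 TPM in cell bodies and at 50.8 and 42.6 TPM in protrusions. Both protrusion libraries were far below both cell body libraries, and the log2 fold change of -1.27 (with an SE of 0.14 and an adjusted p of 0.0336 from limma) was the lowest of the 50. *Sec62*, a helper for chains that enter after translation, was at 95.3 and 104 TPM in cell bodies and 55.8 and 47.0 TPM in protrusions (log2 fold change -0.95, adjusted p = 0.0349 from limma).

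*Sec61a1*, the pore-forming subunit, was at 204 and 237 TPM in cell bodies and at 161 and 129 TPM in protrusions. The groups did not overlap, and its log2 fold change of -0.61 passed with the block but not without it (adjusted p = 0.0645 from limma without it and 0.0128 with it). *Sec63*, the membrane J-protein that works with Sec62 and BiP, was at 37.4 and 39.3 TPM in cell bodies and 32.5 and 23.4 TPM in protrusions, and *Tram1*, which helps signal sequences into the channel, at 180.4 and 158 TPM and at 165 and 133 TPM. Neither passed in limma with or without the block, and the *Tram1* libraries overlapped.

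The small subunits of the same channel were not lower. *Sec61b* (chr4:47474660-47483233, plus strand, mm10) was at 328 and 319 TPM in cell bodies and at 376 and 426 TPM in protrusions, with both protrusion libraries above both of cell bodies. Its log2 fold change of 0.31 (95% confidence interval 0.03 to 0.59) did not pass after adjustment (adjusted p = 0.133 from limma, and 0.093 with the block). *Sec61g* (chr11:16501637-16508484, minus strand, mm10) was at 427 and 359 TPM in cell bodies and 426 and 485 TPM in protrusions, with overlapping groups and an interval of -0.12 to 0.55 around 0.21. The intervals of both lay above the median of the members. Per TPM of *Sec61a1* there were 1.61 and 1.35 TPM of *Sec61b* in the cell body libraries and 2.34 and 3.30 in the protrusion libraries, a change in the log2 ratio of 0.92. In an exact two-sided permutation test over libraries, which does not use the pairing, this gave p = 0.33, the smallest that 2 against 2 allows, and 0.44 adjusted over the 8 ratios compared.

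Sec61b and Sec61g are tail-anchored proteins, held by a single segment at the end of the chain and inserted after translation. They also have the shortest coding sequences of the members, at 288 and 204 bases, and a part for length was not tested. Sorted by how the protein sits in the ER, a grouping made after the values were seen and so given with no test, 19 soluble lumenal members had a median log2 fold change of -0.67, with a range of -1.17 to -0.32, and 28 membrane-spanning members had a median of -0.70, with a range of -1.27 to 0.25. The 2 tail-anchored members had 0.21 and 0.31. A list of 22 other genes of tail-anchored proteins, also drawn up after the values were seen, had 20 tested with a median of 0.18, and 5 of them were below 0. The remaining member, *Srpr*, sits at the membrane through its partner.

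The translocon-associated protein complex (TRAP), 4 membrane proteins beside the channel that help some signal sequences engage it, had 3 lower members, and 4 with the block, with a median log2 fold change of -0.87. *Ssr3* (chr3:65379656-65392553, minus strand, mm10), the gamma subunit, was at 709.9 and 770.1 TPM in cell bodies and 421 and 334 TPM in protrusions (log2 fold change -0.98, SE 0.14, adjusted p = 0.0349 from limma). *Ssr2*, the beta subunit, fell from 225 and 212 TPM to 136 and 101 TPM, and *Ssr4*, the delta subunit, from 301 and 274 TPM to 197 and 181 TPM. *Ssr1*, the alpha subunit, was at 136 and 179 TPM in cell bodies and 97.1 and 78.2 TPM in protrusions (log2 fold change -0.84, adjusted p = 0.0506 from limma and 0.00508 with the block). The libraries of the 2 fractions did not overlap for any of the 4.

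Neither gene of the signal recognition particle receptor passed in limma without the block, although both had an unadjusted p under 0.05. *Srprb*, the membrane subunit, was at 37.9 and 45.2 TPM in cell bodies and 27.3 and 23.2 TPM in protrusions (log2 fold change -0.70, adjusted p = 0.0522 from limma and 0.0116 with the block). *Srpr*, the subunit that meets the particle, was at 82.4 and 86.1 TPM and at 71.7 and 63.6 TPM (log2 fold change -0.32, adjusted p = 0.141 from limma and 0.109 with the block). The log2 ratio of *Srprb* to *Srpr* differed by -0.39 between the fractions with no overlap (exact p = 0.33, adjusted 0.44).

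Oligosaccharyltransferase, the complex that transfers the sugar chain to asparagine, had 8 members, of which 4 were lower and all 8 with the block, with a median log2 fold change of -0.71. *Rpn1* (chr6:88084472-88105304, plus strand, mm10), which encodes ribophorin I, was at 192 and 246 TPM in cell bodies and 117 and 100.5 TPM in protrusions, which is a log2 fold change of -1.0 with an SE of 0.16 (adjusted p = 0.0366 from limma). *Stt3a*, the catalytic subunit that works beside the channel, fell from 266 and 289 TPM to 162 and 139 TPM, a log2 fold change of -0.88 with a 95% interval of -1.19 to -0.58. *Ddost* fell from 194 and 215 TPM to 136 and 115 TPM, and *Dad1* from 32.6 and 33.6 TPM to 21.4 and 20.9 TPM; both encode shared subunits.

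The other catalytic subunit, *Stt3b*, which also acts on sites missed during entry, was at 122 and 101 TPM in cell bodies and 95.6 and 70.2 TPM in protrusions. Its groups did not overlap, and its log2 fold change of -0.43 passed with the block but not without it (adjusted p = 0.176 from limma and 0.0336 with it). The log2 ratio of *Stt3a* to *Stt3b* was lower by 0.45 in protrusions without overlap, from 2.19 and 2.88 to 1.69 and 1.98 (exact p = 0.33, adjusted 0.44). *Rpn2* (ribophorin II), *Ostc* (a subunit of the complex with STT3A) and *Magt1* (an oxidoreductase of the complex with STT3B) had log2 fold changes of -0.71, -0.51 and -0.81 and likewise passed with the block but not without it.

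Signal peptidase, which removes the signal sequence, had 3 of 5 members lower, and 4 with the block, with a median of -0.71. *Sec11a*, a catalytic subunit, fell from 166 and 162 TPM in cell bodies to 96.4 and 74.5 TPM in protrusions (log2 fold change -0.95, adjusted p = 0.0365 from limma). The accessory subunits *Spcs3* and *Spcs2* fell by 0.79 and 0.69 on the log2 scale, *Spcs3* from 160.1 and 158 TPM to 105 and 80.3 TPM and *Spcs2* from 98.4 and 96.4 TPM to 67.2 and 53.9 TPM. *Sec11c*, the alternative catalytic subunit, was at 93.0 and 116 TPM and at 57.2 and 70.4 TPM (log2 fold change -0.71, adjusted p = 0.0592 from limma and 0.00358 with the block). The ratio of *Sec11a* to *Sec11c* overlapped between the fractions (log2 difference -0.24, exact p = 0.667), and it was lower in protrusions within each replicate, at 1.69 against 1.78 and 1.06 against 1.40. *Spcs1*, a small subunit not needed for catalysis, was at 205 and 185 TPM in cell bodies and 155 and 156 TPM in protrusions and did not pass either way.

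**Figure D3:**
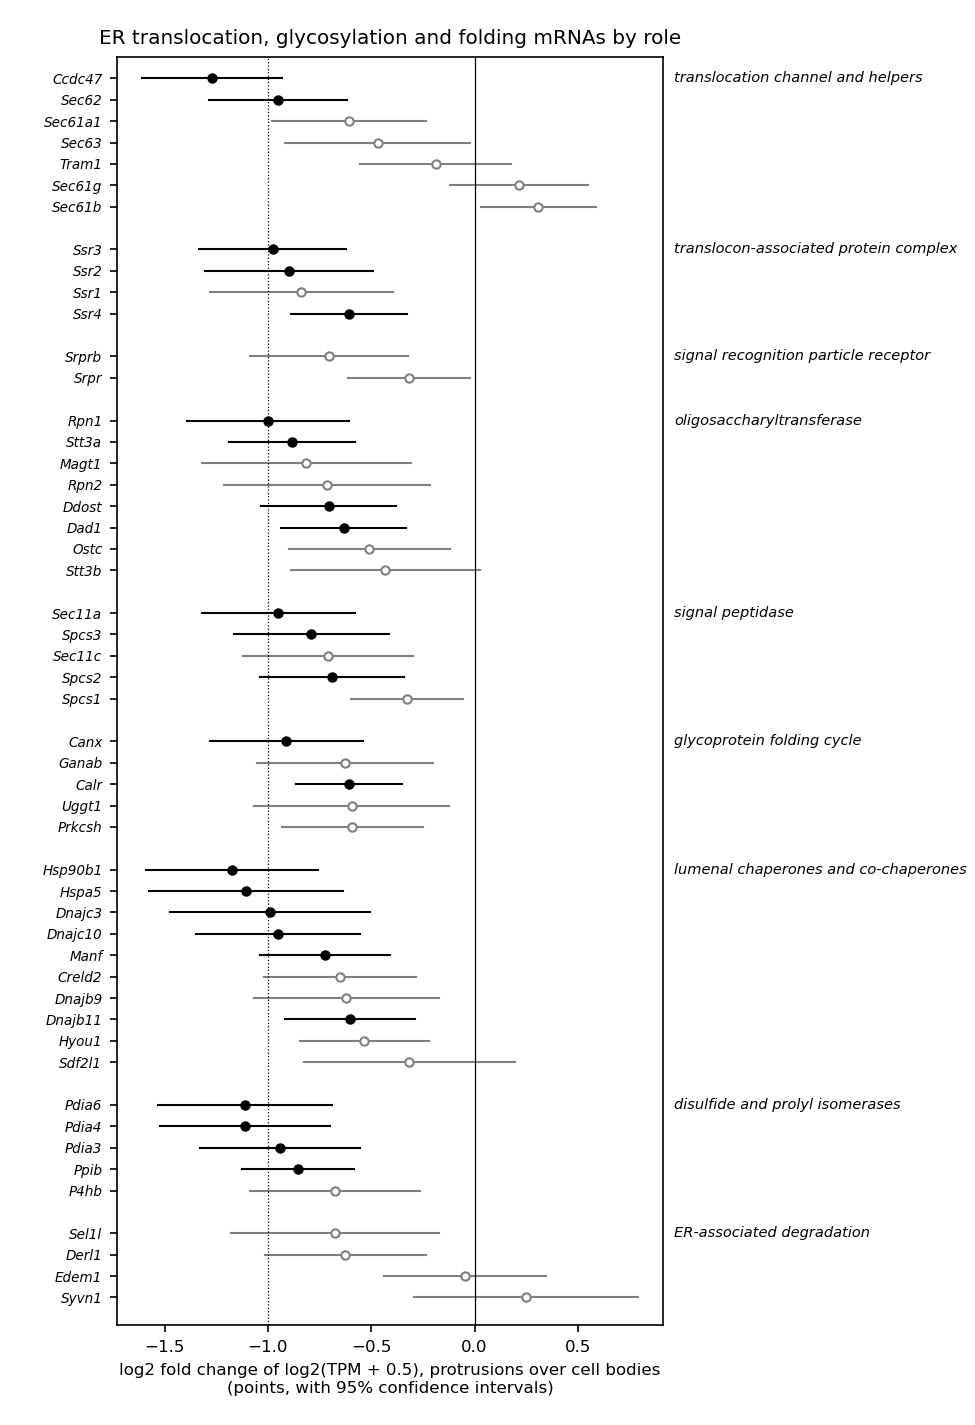
Log2 fold change of log2(TPM + 0.5), protrusions over cell bodies (horizontal axis), of the 50 members by role, as points with 95% confidence intervals from limma. Filled black points are the 24 called members, and open gray points did not pass. The solid line marks no difference and the dotted line a halving. *Ccdc47* lies farthest to the left at -1.27, and the intervals of 43 members lie wholly below 0.

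The highest levels were those of chaperones and folding enzymes. Of 10 chaperones and co-chaperones 6 were lower, and 9 with the block, with a median log2 fold change of -0.69. *Hsp90b1* (chr10:86690840-86705444, minus strand, mm10), which encodes the HSP90-type chaperone GRP94 and had the highest level of the 50, was at 1781 and 1789 TPM in cell bodies and 929.9 and 674 TPM in protrusions (log2 fold change -1.17, SE 0.17, adjusted p = 0.0349 from limma). *Hspa5* (chr2:34772089-34776529, plus strand, mm10), which encodes the HSP70-type chaperone BiP, was at 1265 and 1233 TPM in cell bodies and 702 and 479 TPM in protrusions (log2 fold change -1.11, SE 0.19, adjusted p = 0.0387 from limma). The cell body libraries nearly coincided for both genes, and the gap between the protrusion libraries was the main part of the spread. The log2 ratio of *Hsp90b1* to *Hspa5* differed by -0.07 between the fractions (exact p = 0.33, adjusted 0.44).

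Among the J-proteins that bring clients to BiP, *Dnajc3* fell from 117 and 121 TPM to 72.3 and 49.0 TPM, *Dnajc10*, which also reduces disulfide bonds, from 234 and 237 TPM to 141 and 105 TPM, and *Dnajb11* from 81.0 and 81.7 TPM to 57.8 and 49.3 TPM. *Manf*, a lumenal protein that binds BiP, fell from 151 and 155 TPM to 101 and 84.7 TPM. *Dnajb9*, a further J-protein, *Hyou1*, a nucleotide exchange factor of BiP, and *Creld2*, an ER protein induced by stress, had log2 fold changes of -0.62, -0.53 and -0.65 and passed with the block but not without it. *Sdf2l1*, a partner of the J-proteins, was at 41.1 and 29.3 TPM in cell bodies and 31.1 and 24.8 TPM in protrusions, with overlapping groups and an adjusted p of 0.34 from limma, and did not pass with the block.

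The enzymes of disulfide and proline isomerization had the lowest median of the 9 roles, at -0.94, with 4 of 5 lower and all 5 with the block. *Pdia6* (chr12:17266594-17284770, plus strand, mm10) was at 749 and 714 TPM in cell bodies and 398 and 288 TPM in protrusions, and *Pdia4* (chr6:47796140-47813512, minus strand, mm10) at 360.1 and 429 TPM and at 208 and 159 TPM. Both disulfide isomerases had -1.11 as log2 fold change (SE 0.17 each, adjusted p = 0.035 and 0.0349 from limma), so that their protrusion levels were 46.3% of the cell body levels, taken from the log2 means. *Pdia3*, the isomerase that works with calnexin and calreticulin, fell from 534 and 619 TPM to 339 and 264 TPM (log2 fold change -0.94). *Ppib*, which encodes the proline isomerase cyclophilin B, fell from 857 and 880.0 TPM to 507 and 455 TPM (log2 fold change -0.85, with the interval -1.12 to -0.58). *P4hb*, the classical protein disulfide isomerase, was at 814 and 731 TPM and at 561 and 416 TPM, and passed with the block but not without it (log2 fold change -0.67, adjusted p = 0.0645 from limma and 0.00447 with it). The ratio of *Pdia6* to *Pdia3* overlapped between the fractions (log2 difference -0.17, exact p = 0.667), and it was lower in protrusions within each replicate, at 1.18 against 1.40 and 1.09 against 1.15.

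**Figure D4:**
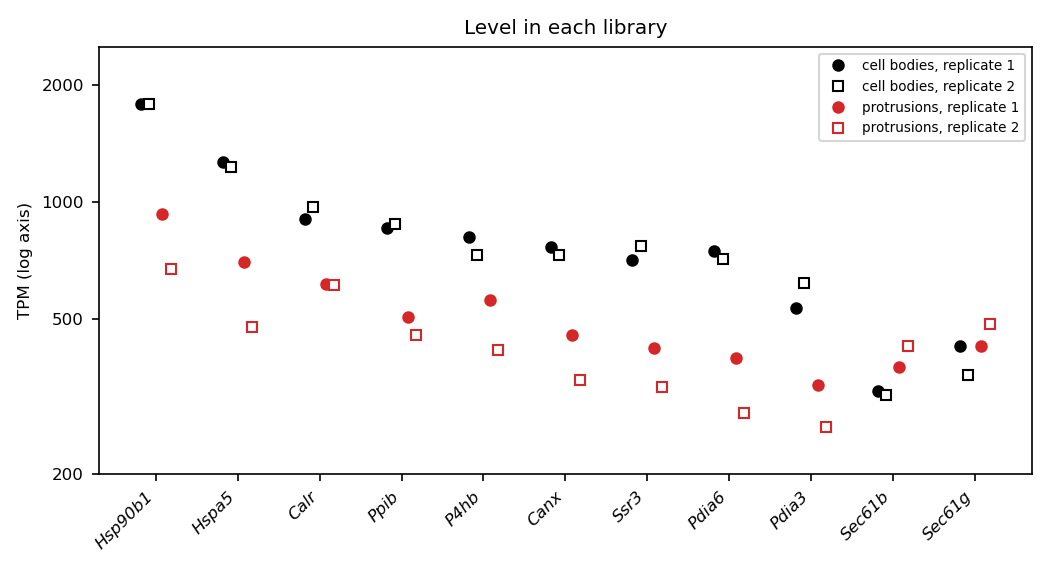
TPM in each library (vertical log axis) of the 10 members with the highest mean TPM and of *Sec61b*; black symbols are cell bodies, red symbols protrusions, circles replicate 1 and squares replicate 2. For the 9 genes at the left both protrusion libraries lie below both cell body libraries, *Sec61b* has the opposite order, and the fractions overlap for *Sec61g*.

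In the cycle by which sugar trimming guides glycoprotein folding, 2 of 5 members were lower, and 5 with the block, with a median of -0.61. *Canx*, which encodes the membrane lectin calnexin, fell from 766 and 733 TPM to 454 and 349 TPM (log2 fold change -0.91, adjusted p = 0.0367 from limma). *Calr* (chr8:84842087-84846931, minus strand, mm10), which encodes its soluble counterpart calreticulin, fell from 903 and 971 TPM to 615 and 614 TPM (log2 fold change -0.61, adjusted p = 0.0383 from limma). For *Calr* the protrusion libraries nearly coincided, unlike for most abundant members. The log2 ratio of *Calr* to *Canx* was higher in protrusions by 0.30 with no overlap (exact p = 0.33, adjusted 0.44). *Ganab* and *Prkcsh*, the subunits of glucosidase II, and *Uggt1*, which puts glucose back on unfolded glycoproteins, had log2 fold changes of -0.63, -0.59 and -0.59 and passed with the block but not without it. *Prkcsh* was at 89.5 and 103 TPM in cell bodies and 68.6 and 59.0 TPM in protrusions, and *Uggt1* at 64.4 and 56.3 TPM and at 47.1 and 33.4 TPM.

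No member of ER-associated degradation passed in limma without the block (2 had an unadjusted p under 0.05), and the median of the 4 was -0.33. *Sel1l*, the adaptor of the HRD1 ubiquitin ligase, was at 34.8 and 46.0 TPM in cell bodies and 28.7 and 21.6 TPM in protrusions, and *Derl1*, a membrane protein of the exit route, at 63.4 and 64.5 TPM and at 47.2 and 36.1 TPM. Both passed with the block (adjusted p = 0.0269 and 0.0127 from limma). *Edem1*, which marks glycoproteins for disposal by mannose trimming, was at 54.2 and 49.6 TPM in cell bodies and 57.1 and 44.3 TPM in protrusions, with a log2 fold change of -0.04 and an interval of -0.44 to 0.35. *Syvn1*, which encodes the ligase HRD1 itself, was the least abundant member at 3.46 and 4.54 TPM and 5.29 and 4.37 TPM, with 195 reads in its shallowest library. The fractions overlapped for both.

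The 11 members whose coding end held this form of the retrieval signal had 6 lower, and 10 with the block, and a median log2 fold change of -0.67, near the median of all 50.

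When unfolded proteins accumulate, cells induce many of these genes through the ER stress response element (ERSE), and its sequence was looked for because promoters were at hand for members that were low together. The letters CCAAT and CCACG with any 9 bases between them were searched on both strands in windows of 300 bases around the gene start (RefSeq, GRCm38.p6), which were present for 41 members. The element was found in 39 of 32851 promoter windows, or 0.119%, and in a window of 8 of the 41 member genes, or 19.5%. The first share counts windows and the second genes, so they are not counted alike. It is shown for *Hspa5*, *Hsp90b1* (which has a pair), *Calr*, *Canx* and *Pdia6*, the abundant members that hold it, in capitals at the fixed bases and on the strand where it reads in this direction.
*Hspa5*, chr2:34772025-34772043, plus strand: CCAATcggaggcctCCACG
*Hsp90b1*, chr10:86705533-86705551, plus strand: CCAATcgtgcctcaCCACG
*Hsp90b1*, chr10:86705638-86705656, minus strand: CCAATcgcaaggagCCACG
*Calr*, chr8:84847075-84847093, plus strand: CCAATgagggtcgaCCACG
*Canx*, chr11:50325800-50325818, minus strand: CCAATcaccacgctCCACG
*Pdia6*, chr12:17266491-17266509, plus strand: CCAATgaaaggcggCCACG
The others were *Creld2*, *Dnajc3* and *Syvn1*. Of these 8 members 6 were lower, and 7 with the block, with a median log2 fold change of -0.95, whereas *Syvn1* had 0.25. Of the 33 members with a promoter and no such element 15 were lower, and 26 with the block, with a median of -0.67. A part for the element in the fold changes was not tested. A second form of the element, ATTGG and CCACG with any 1 base between them, was found in 12 of all promoters and among the members in that of *Dnajb11*. These matches describe the letters of the window, and members without one may hold other forms.

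Other genes of the ER, from lists by function, differed from list to list. The lists that act with the members held 137 genes, of which 125 were tested, with 19 lower, 1 higher and a median log2 fold change of -0.43. With the block 61 were lower and 5 higher. The share lower was greatest for other enzymes of oxidative folding and trimming, at 8 of 25 tested (21 with the block, median -0.72). *Tmx2*, a membrane thioredoxin, fell by 1.01 on the log2 scale and *Fkbp2*, a proline isomerase, by 0.72. Synthesis of the lipid-linked sugar that oligosaccharyltransferase uses had 2 of 20 lower, and 14 with the block, with a median of -0.67. Both *Alg5*, which makes the glucose donor, and *Alg8*, a glucosyltransferase, were lower, with log2 fold changes of -1.04 and -1.05.

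The remaining ER lists had smaller medians. In the ER membrane complex, which inserts membrane proteins, 2 of 10 were lower (4 with the block, median -0.41), *Emc3* at -0.98 and *Emc7* at -0.88. Among genes of ER shape 1 of 12 was lower (5 with the block, median -0.41), *Atl2*, which fuses ER tubules, while *Ktn1* passed with the block but not without it (adjusted p = 0.0505 from limma and 0.0052 with it). Of other translocon, tail-anchor and oligosaccharyltransferase genes 2 of 14 were lower, *Tmco1* and *Tusc3*, and 1 was higher (4 and 1 with the block, median -0.26). The higher gene was *Bag6*, a cytosolic chaperone for tail-anchored proteins, which rose from 28.4 and 30.1 TPM to 58.0 and 57.7 TPM (log2 fold change 0.97, adjusted p = 0.0342 from limma). Other degradation genes had 3 of 22 lower (9 lower and 3 higher with the block, median -0.18), with *Os9* at -0.79, *Vimp* at -0.78 and *Derl2* at -0.85. Of sensors and effectors of the unfolded protein response 1 of 14 was lower, *Creb3* (4 with the block, median -0.25), and *Atf6* passed with the block but not without it (adjusted p = 0.054 from limma and 0.0048 with it).

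Lists of cytosolic machinery had medians near that of all genes, and of these only the signal recognition particle belongs to the secretory route. The signal recognition particle had 0 of 8 called in limma in either fit and a median of -0.07, with 1 gene at an unadjusted p under 0.05. Its smallest p belonged to *Srp54c* and *Srp54b*, near-identical copies whose counts are uncertain, at -0.37 and -0.36. The 2 entries overlap on the genome and hold nearly the same reads (710 and 711 in cell bodies replicate 1), so they are not separate measurements. Cytosolic chaperonin and chaperones had 0 of 22 called in limma and a median of -0.02, with 5 at an unadjusted p under 0.05. With the block 1 was lower, *Hsp90aa1*, the cytosolic relative of *Hsp90b1*, at 1530 and 1470 TPM in cell bodies and 1155 and 1043 TPM in protrusions (log2 fold change -0.45). *Dnaja1* had -0.31 and did not pass.

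**Figure D5:**
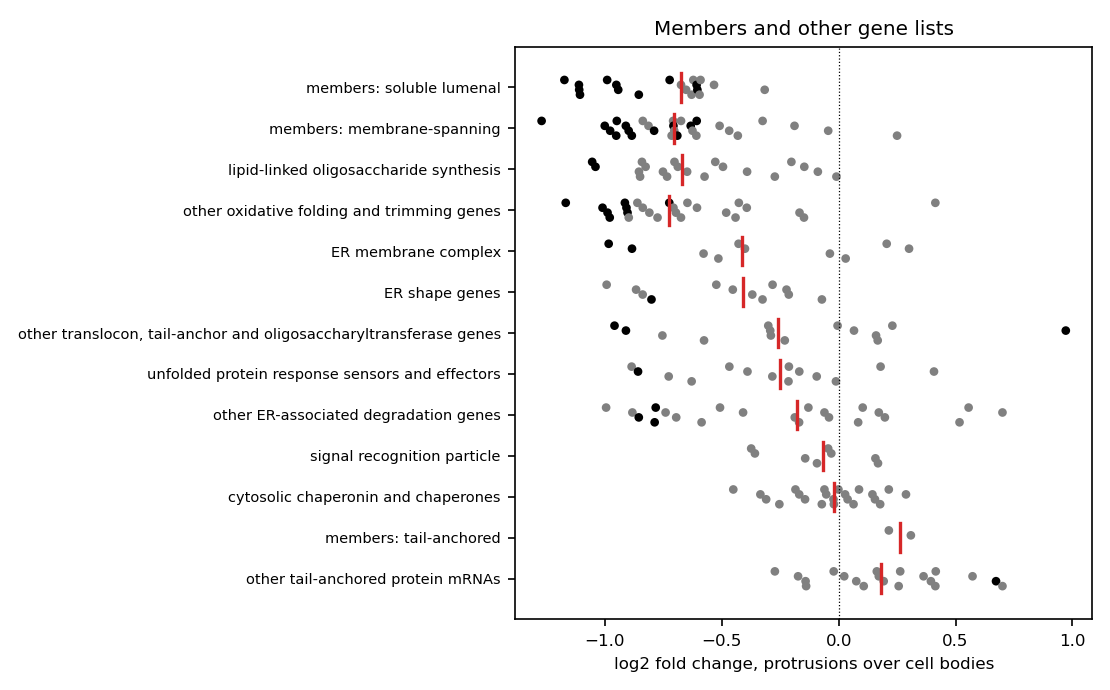
Log2 fold change, protrusions over cell bodies (horizontal axis), of each tested gene (points) in the members, split by how the protein sits in the ER, and in other gene lists. Black points were called in limma, gray points were not, and red bars are list medians. The 2 lumenal and membrane-spanning groups of members and the lists of sugar synthesis and oxidative folding have medians of about -0.7, and the cytosolic lists lie around 0. *Srpr*, a peripheral protein, is not drawn.

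Across the 50 members the fold change was described against features of the transcript. The Spearman correlation with the GC content of the transcript was 0.35, near the 0.38 over all genes tested, and members and all genes had like median GC contents of 49.0% and 49.8%. The correlation was -0.16 with transcript length and -0.12 with coding length, which had -0.13 over all genes with a coding sequence. It was -0.37 with mean TPM, so more abundant members tended to have lower fold changes, while it was 0.08 with mean TPM over all genes. The points share the same 4 libraries. With a correction for GC content 17 members and 265 of all genes were lower. With the block as well, 42 members and 1331 of all genes were lower. The median of the members was -0.68 as before and the 24 called members were all below 0. The calls of *Hspa5* (adjusted p = 0.0516 from limma), *Canx* (0.0521), *Dad1*, *Spcs2*, *Spcs3*, *Dnajb11* and *Dnajc3* were lost in that fit without the block.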

How the data were processed

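RNA from cell bodies and protrusions (2 libraries each) was rRNA-depleted and sequenced strand-specifically. The authors deposited 1 table with TPM per library on mm10. The deposited log2 columns hold the authors' mean log2 CPM, used only to set the scale of recovered reads, and their edgeR log2 fold change, which with its likelihood ratio, p-value and FDR was not used. Methods and processing notes differ on the aligner (TopHat or STAR); the notes also name featureCounts.

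log2(TPM + 0.5) was fitted with limma 3.58.1 in R 4.3.3 (trend) over 11400 genes whose TPM averaged 1 or more, Benjamini-Hochberg adjusted over all of them, two-sided. The planned count model was not used because the table holds TPM. Ratios of a gene's TPM values gave reads whole within 0.01 for all 16537 genes. Residual degrees of freedom were 2, and 1 with the block. Prior degrees of freedom, taken from all genes tested, were 3.81, and 10.2 with the block. Pairing comes from the shared inserts, and deviations within a replicate number correlated at 0.45 over 11400 genes. In tests on simulated data, false calls exceeded the threshold in most sets, and by most with the block. The simulated libraries shared no variation within a replicate, unlike the real ones.

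All members are accounted for. Values in every library are given for called members, the 10 most abundant, the extremes of each role and members of 8 ratios, and the 2 genes of smallest p are named in each other list. *Tusc3* and *Derl2*, outside the rule, were named after their values were seen. The members and lists were chosen with earlier results of these data known; membrane topology and the tail-anchored list were set after values were seen. Coding ends came from GENCODE transcripts of GRCm38 and promoters from RefSeq. Alternatives were pseudocounts of 0.1 and 1, no filter, other scalings, GC content, the block and leaving out each library, and, chosen after seeing the data, voom on recovered reads.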

Additional observations from a re-analysis of the deposited data

How the results depend on the processing

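All 24 members called lower had a log2 fold change below 0 under each of the 14 other settings. Their fractions did not overlap, so the block, the pseudocounts, the filter and leaving out a library could not change this sign. With the replicate number as a block, which pairs the fractions, 41 members were lower, as were 61 genes of the other ER lists (5 higher) and 1513 of all genes (921 higher), and with a GC correction as well 42, 58 (4 higher) and 1331 (853 higher). With the GC correction alone 265 genes were lower and 172 higher, with 0 higher in the other ER lists. Without the filter on low values nothing passed in limma: 0 genes in each direction. At an unadjusted p under 0.05, 42 members and 2162 of all genes were lower in that fit. Scaling the libraries to *Ppia* and *Ywhaz* shifted the median of all genes by -0.14 and gave 1099 genes lower and 207 higher, against 485 and 341, with 42 lower in the other ER lists; the median of the members relative to all genes is not moved by a scaling. Centring on the median gave 33 lower and 2 higher in the other ER lists. In voom on the recovered reads, chosen after seeing the data, 847 genes were lower and 735 higher, and 42 and 3 in the other ER lists. With the block, voom gave 2025 and 1813 over all genes, 62 and 6 in the other ER lists, and 42 members lower and 1 higher, *Sec61b*. Leaving out 1 library gave 0 to 11 members lower, 0 to 144 of all genes lower and 0 to 14 higher, and 0 to 4 lower and 0 to 0 higher in the other ER lists. The log2 fold change of *Edem1* turned to 0.035 on median centring, 0.0541 with the GC correction with or without the block, and 0.0154 in voom and 0.0159 in voom with the block, and lay between -0.23 and 0.14 when 1 library was left out. That of *Tram1* turned to 0.0165 with the GC correction with or without the block. Neither was called, and the cause of these changes was not tested. Depth limits *Syvn1* most, at 195 reads in a library.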
